A study of Caenorhabditis elegans with 4 samples.

Results

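The 10 genes described here encode the protein machine that joins chromosomes to the spindle in Caenorhabditis elegans, together with the chromosomal passenger complex that corrects and releases those attachments. They were taken from a list of gene names, hcp-3, hcp-4, knl-2, knl-1, knl-3, ndc-80, bub-1, air-2, icp-1 and bir-1, matched to the gene column of a deposited table of 20389 genes and joined by gene identifier to the reads of each library. All 10 were found. The rule uses names and no measured value, but the list was drawn up with earlier results of these data known. Their transcripts were measured by mRNA-seq in gonads dissected from adult hermaphrodites of 2 genotypes, with 2 libraries per genotype. The him-8 animals carried him-8(tm611), which disables a zinc finger protein needed for the X chromosomes to pair and synapse in meiosis. The met-2;him-8 animals carried the same him-8 allele and met-2(n4256), and so also lacked the histone H3 lysine 9 methyltransferase MET-2. Both genotypes thus had unsynapsed X chromosomes, and no library came from animals with paired X chromosomes. The met-2 mutants were recently derived from a balanced strain. Each RNA preparation pooled 400 gonad arms, cut at the spermatheca, which hold germ cells from the dividing zone to oocytes along with somatic sheath cells.

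Worm chromosomes are holocentric: the kinetochore assembles along the whole length of each chromosome in dividing cells. The histone H3 variant HCP-3 marks this chromatin, HCP-4 and KNL-2 bind there, and the KMN network (KNL-1, the Mis12 complex and the Ndc80 complex) binds microtubules. In oocyte meiosis the passenger complex, made of the Aurora B kinase AIR-2 with ICP-1, BIR-1 and CSC-1, concentrates between homologs and marks the place where cohesin is removed. The adult gonad is known for both activities, and it also stores these transcripts in oocytes for the first embryonic divisions.

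The libraries held 14255714 to 49848077 reads on genes, and the 10 members took 0.142% to 0.226% of them. Depth did not limit these genes, since every member had between 488 and 16350 reads in every library. Transcripts of the mutated met-2 gene measured 25.8 and 52.8 CPM (read counts scaled to library size by the TMM method) where the allele was present and 127 and 212 CPM where it was not. That difference, a log2 fold change of -2.11 with an unadjusted p of 0.00585, was not called either (adjusted p = 0.886 in edgeR's test), so the lack of a call does not exclude changes of this size. The summed level of 6 oocyte markers was 7791 to 10779 CPM and that of 6 germ line markers 5095 to 6737 CPM. Of 6 sperm markers 5 were in the tables and summed to at most 13.9 CPM. The 6 markers of gonadal sheath and spermatheca summed to 506 to 1640 CPM, most of it fln-1, while lim-7 (2.91 to 6.51 CPM) and ceh-18 (0.804 to 2.75 CPM) of that list were low. Markers of tissues outside the gonad differed more. The 5 intestinal markers summed to 1690 and 967 CPM in met-2;him-8 and to 648 and 401 CPM in him-8, and the 5 body wall muscle markers to 88.4 and 205 CPM against 74.5 and 57.7 CPM. Much of the intestinal sum was asp-1, at 1113 and 426 CPM in met-2;him-8 and at 291 and 51.1 CPM in him-8. Of the intestinal list 4 genes had a positive log2 fold change and 1 a negative one, elt-2 (-0.47), which was low at 0.073 to 0.73 CPM. None of these marker lists held a gene with 0 reads in every library. Their part in the results was not tested.

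None of the 10 genes passed the test between the genotypes. In edgeR's quasi-likelihood test, adjusted by the Benjamini-Hochberg method over the 10875 genes that passed the expression filter, 0 of the 10 members had an adjusted p-value below 0.05, and 0 had an unadjusted p-value below 0.05. The background was as low, with 0 genes called, or 0%, and 526 genes at an unadjusted p below 0.05. DESeq2's Wald test also called 0 members, with 0 at an unadjusted p below 0.05, and 26 genes in all. All 10 members passed the filter. The median log2 fold change of met-2;him-8 over him-8 was 0.26 over the members and 0.021 over all genes tested. It was above 0 in 8 members and below 0 in 2. This median was not stable: it was -0.21 without met-2;him-8 replicate 2, -0.047 without him-8 replicate 1, 0.60 without met-2;him-8 replicate 1 and 0.56 without him-8 replicate 2. In these bulk samples fewer cells of a type and less RNA per cell cannot be told apart.

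The members instead fell into 2 kinds by how their replicates behaved. Transcripts of hcp-4, knl-2, knl-1 and ndc-80 were at least 2-fold higher in replicate 2 than in replicate 1 of both genotypes, by 4.97-fold to 7.03-fold in met-2;him-8 and by 2.55-fold to 3.39-fold in him-8. The other 6 members differed between replicates by at most 1.52-fold. The limit of 2-fold was chosen after these values were seen, and the split is a description. Over all genes tested, 4.1% met the same limit in the same direction, or 446 of 10875. The opposite direction was commoner: 788 genes, and 0 of the 10 members, were at least 2-fold lower in both replicate 2 libraries. By the lower of its 2 ratios, the member nearest to the limit from below was icp-1, at 1.27-fold in met-2;him-8 and 1.35-fold in him-8, and the nearest from above was hcp-4, at 2.55-fold in him-8. The labels do not say what the replicate numbers share. In met-2;him-8 the replicate 2 library was the deeper one, and in him-8 it was the shallower one.

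**Figure D1:**
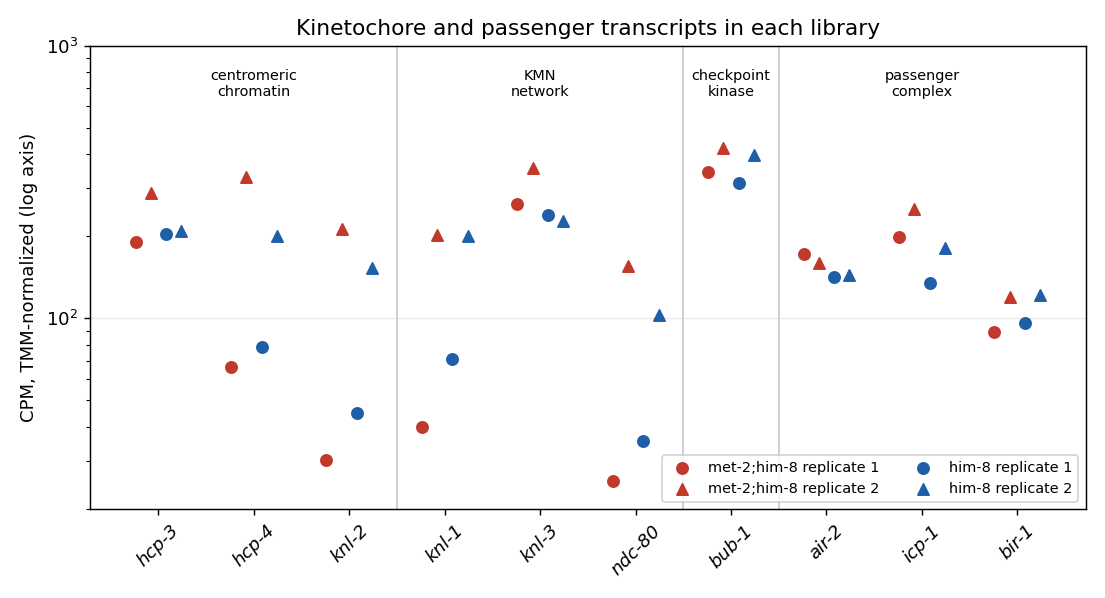
TMM-normalized CPM (log axis) of each member in the 4 libraries, with colour for genotype and shape for replicate. For hcp-4, knl-2, knl-1 and ndc-80 both triangles (replicate 2) lie far above both circles (replicate 1), whichever the genotype, while the other 6 members keep their libraries close together.

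Among the genes of centromeric chromatin, hcp-3 (F58A4.3, chromosome III, 9615352 to 9616369 as placed by the deposited table) encodes the worm CENP-A, the histone H3 variant that defines where a kinetochore forms. Its transcripts were at 191 and 289.6 CPM in replicates 1 and 2 of met-2;him-8 and at 204 and 209.9 CPM in those of him-8. The met-2;him-8 libraries lay on both sides of the him-8 libraries, so that the groups overlapped. The log2 fold change was 0.22 (standard error, SE, of 0.26 and adjusted p = 0.963 in edgeR's test). Its paralog cpar-1 (chromosome III, 9433990 to 9434922), which encodes a second CENP-A-like histone, was at 171 and 312 CPM in met-2;him-8 and 181 and 163 CPM in him-8. The pair encode related proteins, and how the counting divided reads between them is not given in the sources used here, so both values are uncertain to that extent.

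The gene hcp-4 (T03F1.9, chromosome I, 3862938 to 3865940) encodes the worm CENP-C, which links the HCP-3 chromatin to the outer kinetochore. Its transcripts were at 66.3 and 329.6 CPM in replicates 1 and 2 of met-2;him-8 and at 78.7 and 200.4 CPM in those of him-8. Both replicate 1 libraries were low and both replicate 2 libraries high. The replicate 1 libraries gave a ratio of met-2;him-8 to him-8 of 0.842 and the replicate 2 libraries one of 1.64. Between genotypes the log2 fold change was 0.51 (SE 0.83 with adjusted p = 0.975).

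The gene knl-2 (K06A5.4, chromosome I, 6460993 to 6464098) encodes a Myb-domain protein needed to load HCP-3. It had the widest range of the 10 members, with transcripts at 30.3 and 213 CPM in replicates 1 and 2 of met-2;him-8 and at 45.1 and 153 CPM in those of him-8. The lowest and the highest library were thus the 2 of one genotype, met-2;him-8. Its log2 fold change was 0.30 with a standard error of 1.01 (adjusted p = 0.983), and the 95% interval ran from -2.27 to 2.88, or from 0.207-fold to 7.35-fold. This interval comes from a fit that ignores the replicate number. With the replicate number as a block the log2 fold change was -0.042 (unadjusted p = 0.889 in edgeR's test), in the other direction.

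In the KMN network, knl-1 (C02F5.1, chromosome III, 8250565 to 8253872) encodes the scaffold that holds the network together and recruits BUB-1 and protein phosphatase 1. Its transcripts were at 40.0 and 202 CPM in replicates 1 and 2 of met-2;him-8 and at 70.8 and 200.2 CPM in those of him-8. In replicate 2 the genotypes were level, with a ratio of 1.01, and in replicate 1 the ratio of met-2;him-8 to him-8 was 0.565. Its fitted log2 fold change was -0.16 (SE 0.86 with adjusted p = 0.989).

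The gene ndc-80 (W01B6.9, chromosome IV, 10086126 to 10088289) encodes the subunit that contacts microtubules. It was at 25.3 and 156 CPM in replicates 1 and 2 of met-2;him-8 and at 35.3 and 103 CPM in those of him-8. The order of the 4 libraries was that of hcp-4 and knl-2, with met-2;him-8 replicate 1 lowest and met-2;him-8 replicate 2 highest. For ndc-80 the log2 fold change was 0.40 (SE 0.94 with adjusted p = 0.979).

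The gene knl-3 (T10B5.6, chromosome V, 1869213 to 1870360), which encodes a subunit of the Mis12 complex, did not share the pattern of the other KMN members. Its transcripts were at 262 and 356 CPM in replicates 1 and 2 of met-2;him-8 and at 239 and 228 CPM in those of him-8. The met-2;him-8 values were the 2 highest, without overlap. This gave a log2 fold change of 0.40 (SE 0.23, 95% interval -0.19 to 0.99, adjusted p = 0.891). Without met-2;him-8 replicate 2 it was 0.15, and without met-2;him-8 replicate 1 it was 0.62. The fold change of knl-3 was close to that of ndc-80 in this fit, with a standard error about 4 times smaller. With the replicate number as a block the 2 were no longer close, at 0.39 for knl-3 and 0.064 for ndc-80.

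Transcripts of bub-1 (R06C7.8, chromosome I, 7251945 to 7255129), which encodes a checkpoint kinase that sits on KNL-1, were among the steadiest. They were at 344 and 422 CPM in replicates 1 and 2 of met-2;him-8 and at 315 and 397 CPM in those of him-8. Both replicate 2 libraries were the higher ones, by 1.23-fold and 1.26-fold, and the genotypes overlapped. Its log2 fold change was 0.10 (SE 0.23 with adjusted p = 0.978), and the 95% interval ran from 0.720-fold to 1.60-fold.

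In the chromosomal passenger complex, icp-1 (Y39G10AR.13, chromosome I, 2304718 to 2306788) encodes the worm INCENP, the scaffold that activates Aurora B. Its transcripts were at 198 and 251 CPM in replicates 1 and 2 of met-2;him-8 and at 135 and 182 CPM in those of him-8. The genotypes did not overlap, and the ratio of met-2;him-8 to him-8 was 1.47 between the replicate 1 libraries and 1.38 between the replicate 2 libraries. For icp-1 the log2 fold change was 0.50 (SE 0.26, 95% interval -0.15 to 1.16), which did not pass the test (adjusted p = 0.886). It was 0.29 without him-8 replicate 1, 0.31 without met-2;him-8 replicate 2 and 0.74 without him-8 replicate 2.

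The gene air-2 (B0207.4, chromosome I, 5937486 to 5938691) encodes Aurora B itself. Its transcripts were at 172 and 159.6 CPM in replicates 1 and 2 of met-2;him-8 and at 141.5 and 144 CPM in those of him-8. Both met-2;him-8 libraries were the higher ones, by a margin that depended on the scaling: with plain library totals they were at 190 and 144 CPM against 147 and 138 CPM, and the genotypes overlapped. The log2 fold change was 0.22 (SE 0.20 with adjusted p = 0.927), with a 95% interval from 0.820-fold to 1.65-fold. The related air-1 gene, which encodes the Aurora A kinase of centrosomes, gave -0.16 on the same scale (SE 0.21).

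The third subunit gene, bir-1 (T27F2.3, chromosome V, 11644745 to 11645256), encodes the worm survivin. Its transcripts were at 89.2 and 119 CPM in replicates 1 and 2 of met-2;him-8 and at 96.5 and 122 CPM in those of him-8. The replicate 2 libraries were the higher ones in both genotypes and the genotypes overlapped. The fitted log2 fold change was -0.065 (SE 0.27 with adjusted p = 0.985). Its neighbour skp-1, which lies 223 bases away on the same strand, was at 143 and 158 CPM in met-2;him-8 and at 136 and 185 CPM in him-8.

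Thus 3 of the 10 members, knl-3, air-2 and icp-1, had their 2 highest values in met-2;him-8, and 0 had their 2 highest in him-8. Over all genes tested these shares were 16.9% and 19.8%, so that 3 of 10 members is near the background in count. For a single gene, 2 libraries against 2 leave the exact permutation test a smallest two-sided p of 0.333.

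**Figure D2:**
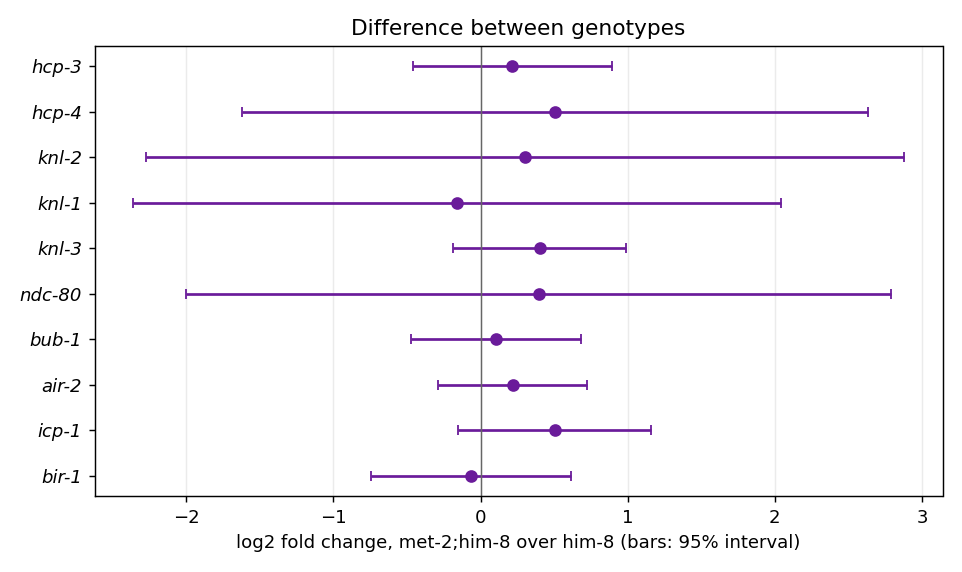
Log2 fold change of met-2;him-8 over him-8 (horizontal axis) of each member from edgeR's quasi-likelihood fit, with bars for the 95% interval. All 10 intervals cross 0, and those of hcp-4, knl-2, knl-1 and ndc-80 reach beyond 2 on the log2 scale on at least 1 side, while the other 6 stay between -0.74 and 1.16.

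The error of each fold change followed the same split. The standard errors of hcp-4, knl-2, knl-1 and ndc-80 lay between 0.83 and 1.01, and those of the other 6 members between 0.20 and 0.27. The median standard error over all genes tested was 0.48, and 28.9% of genes had one above 0.8. Because the split was made on the replicate values, these errors restate it.

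The replicate pattern was then set beside features that did not enter the list. The 4 members with the pattern are 2 of the 3 genes of centromeric chromatin and 2 of the 3 of the KMN network, and none is a passenger complex gene. With 4.1% of all genes tested past the limit, 0 of the 3 passenger genes is near the background. The 4 members with the pattern lie on chromosomes I, III and IV. Their annotated exons, joined over all transcripts of a gene, sum to between 1910 and 3037 bases, against 673 to 3062 bases for the other members. The longest transcript of each has 7 to 9 exons, against 3 to 6 exons for the other members. Length alone did not separate them, since bub-1, with 3062 bases of exon, is the longest of the 10 and was steady. Over all genes tested, those with the pattern had a median of 2670 bases of exon and the others 1426 bases. Of genes with 2205 bases of exon or more 10.4% had it, against 1.37% of genes with 968 bases or fewer. Of the 4 members in that longest class, hcp-4, knl-2 and knl-1 had the pattern and bub-1 did not.

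No gene next to a member met the same limit, but only 4.1% of all genes tested met it. The genes on either side of hcp-4, knl-2, knl-1 and ndc-80 in the deposited coordinates were T03F1.8 and pgk-1, rab-10 and acdh-3, C02F5.2 and F09G8.5, and col-2 and ttr-39, and none of these 8 was at least 2-fold higher in replicate 2 of both genotypes. The 4 around knl-1 and ndc-80 bear little on this, since none exceeded 1.30 CPM in any library. Of those next to knl-2, acdh-3, 201 bases away, was at 284 and 217 CPM in met-2;him-8 and at 303 and 324 CPM in him-8. None of the 10 members shares bases with another listed gene. Of the oocyte markers 0 of 6 genes were past the limit, which is near the share of 4.1% over all genes tested. Of the 6 germ line markers 1 was, nos-3, at 56.5 and 371 CPM in met-2;him-8 and at 66.4 and 199 CPM in him-8. Of the 5 body wall muscle markers 1 was past the limit, and of the 5 intestinal markers 0 were. Of the 5 intestinal markers 2 were at least 2-fold lower in replicate 2 of both genotypes, as were 788 of the 10875 genes tested.

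**Figure D3:**
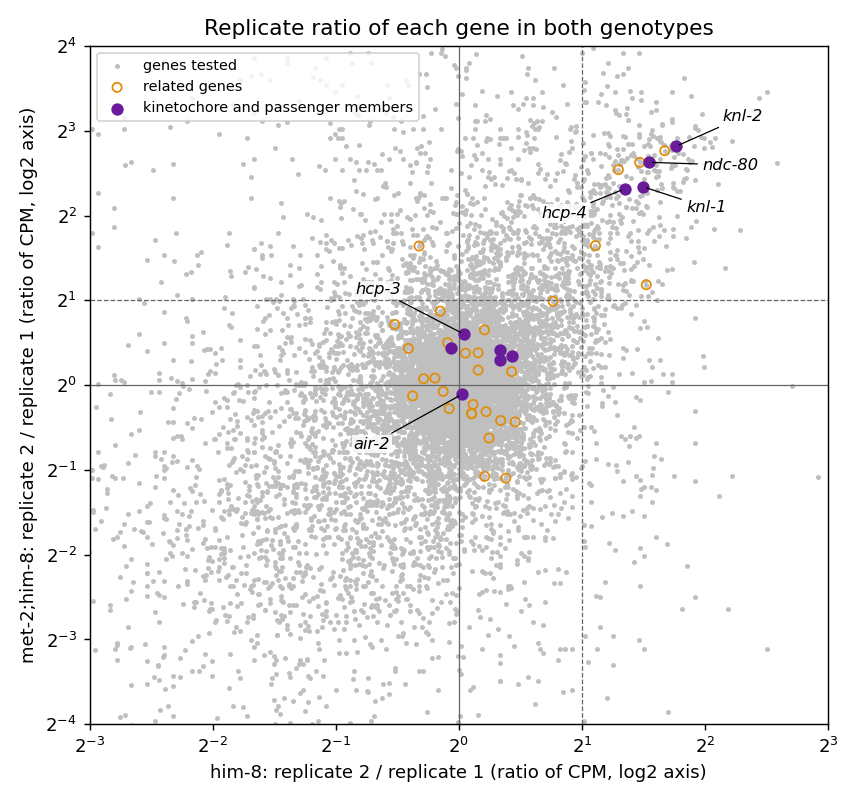
Ratio of CPM in replicate 2 to that in replicate 1, in him-8 (horizontal) and in met-2;him-8 (vertical), on log2 axes, for the tested genes inside the axes (10091 genes in grey, with 784 outside them or at 0 in a library), the related genes (open circles) and the 10 members (filled). The 4 members hcp-4, knl-2, knl-1 and ndc-80 sit in the upper right beyond the dashed 2-fold lines, and the other 6 lie near 1.

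Other genes of the same pathways were examined in the same way. Of 30 related genes in 6 lists all 30 were tested, 0 were called, 1 had an unadjusted p below 0.05 in edgeR's test and 2 in DESeq2's, which called 0. Their median log2 fold change was 0.044, with 17 above 0 and 13 below. The replicate pattern was met by 5 of the 30, against 4.1% of all genes tested.

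Of the other 7 subunit genes of the KMN network, 1 had the pattern, him-10, which encodes the Nuf2 partner of NDC-80. It was at 41.8 and 94.9 CPM in met-2;him-8 and at 37.8 and 109 CPM in him-8. The small subunit genes did not. For example kbp-3 went the other way in met-2;him-8, at 67.9 and 31.7 CPM, against 55.1 and 71.8 CPM in him-8. The log2 fold changes of the list lay between -0.35 (kbp-3, standard error 0.43) and 0.32 (mis-12, standard error 0.28).

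Of 7 genes of the outer corona, which encode the ROD, Zwilch and ZW10 complex, its adaptor SPDL-1, the CENP-F-like HCP-1 and HCP-2 and the microtubule regulator CLS-2, 2 had the pattern. These were the paralogs hcp-1 and hcp-2. Transcripts of hcp-1 were at 109 and 672 CPM in met-2;him-8 and at 154 and 426 CPM in him-8, and those of hcp-2 at 50.2 and 292 CPM against 91.1 and 224 CPM. The highest log2 fold change of this list was 0.43 for hcp-1 (SE 0.92) and the lowest -0.30 for czw-1 (SE 0.21). For rod-1 and czw-1 the 2 lowest values were those of met-2;him-8, which held for 19.8% of all genes tested. With plain library totals czw-1 overlapped, at 454 and 295 CPM in met-2;him-8 and at 454 and 450.2 CPM in him-8.

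The 4 genes of the spindle assembly checkpoint (mdf-1, mdf-2, san-1 and bub-3, the worm MAD1, MAD2, MAD3 and BUB3) all had a log2 fold change within 0.15 of 0, from -0.14 for mdf-1 (SE 0.44) to -0.054 for san-1 (SE 0.30). None met the replicate limit, though mdf-1 came close, at 1.98-fold in met-2;him-8 and 1.70-fold in him-8.

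Of 5 partners and regulators of the passenger complex, csc-1 (chromosome II, 13596886 to 13597804), which encodes the remaining, Borealin-like subunit, had the highest log2 fold change, 1.19 (SE 0.55, 95% interval -0.22 to 2.59, adjusted p = 0.886). It was at 257 and 802 CPM in met-2;him-8 and at 258 and 207 CPM in him-8. A single library, met-2;him-8 replicate 2, stood apart, and without it the log2 fold change was 0.13. With no expression filter csc-1 was called, at an adjusted p of 0.00585. The 3 member genes of the complex did not share that library's rise, at 0.927-fold to 1.34-fold between replicates of met-2;him-8. In this list tlk-1, the worm Tousled-like kinase, had the replicate pattern (56.1 and 381 CPM against 71.0 and 227 CPM), and the lowest log2 fold change was -0.24 for gsp-1, a protein phosphatase 1 gene (SE 0.22).

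All 5 genes of the spindle midzone and of chromosome movement had a positive log2 fold change, and in 4 of them, zen-4, cyk-4, spd-1 and klp-7, the 2 highest values were those of met-2;him-8, which held for 16.9% of all genes tested. For zen-4 this was lost with plain library totals, at 369 and 258 CPM against 271 and 270.9 CPM. The largest was 0.90 for spd-1, which encodes the microtubule bundler of the central spindle (SE 0.33 with adjusted p = 0.886), and the smallest 0.19 for zen-4, a kinesin gene (SE 0.20). Without met-2;him-8 replicate 2 the spd-1 value was 0.49, and without met-2;him-8 replicate 1 it was 1.23. The spd-1 transcripts were at 399.9 and 657 CPM in met-2;him-8 and at 333.5 and 233 CPM in him-8. The fifth gene, klp-19, which encodes a chromosome-bound kinesin, had the replicate pattern, at 229 and 717 CPM against 213 and 459 CPM.

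Levels of different genes were compared per kilobase of exon, as the mean of the 4 libraries. The order from high to low was knl-3 (220.7 CPM per kilobase), hcp-3 (220.5), bir-1 (159), air-2 (129.6), bub-1 (121), icp-1 (92.3), hcp-4 (62.4), knl-1 (42.3), ndc-80 (41.9) and knl-2 (37.6). The first was 5.87-fold above the last. The steps are less sure than the ends: the libraries of neighbours in this order overlapped in 8 of 9 steps, all but that from hcp-3 to bir-1. All 10 genes stood above the median tested gene (10.8 CPM per kilobase), and between 64.6% and 94.2% of tested genes had a lower level.

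The members with the replicate pattern were the 4 lowest on this scale. Their order relative to the rest depended on the library. In met-2;him-8 replicate 1, hcp-4 was at 24.5 and knl-2 at 10.3 CPM per kilobase, when icp-1 was at 95.4. In met-2;him-8 replicate 2, hcp-4 was at 122, level with icp-1 at 121 CPM per kilobase.

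The authors' RPKM, 1 value per genotype from both replicates, gave another order at the top. There bir-1 was first, at 468 RPKM in met-2;him-8 and 432 in him-8, and its mean over the genotypes was 2.84 times the level computed from the counts. The deposited span of bir-1 is 512 bases and its exons in the annotation used here sum to 673 bases. The exon sum also exceeded the deposited span for knl-3 (1230 against 1148 bases) and icp-1 (2076 against 2071 bases), so the annotated lengths differ from the deposited ones beyond bir-1. Whether length bears on the ratio was not tested. For the other 9 members this ratio was between 1.03 and 1.72. Some related genes also differed widely, such as mdf-2, at 396 and 399 RPKM in met-2;him-8 and him-8 against 63.0 CPM per kilobase. The bottom 4 were the same genes on both scales, with hcp-4 at 69.5 and 59.0 RPKM, ndc-80 at 63.6 and 47.0, knl-1 at 42.2 and 53.3 and knl-2 at 46.8 and 42.3 in met-2;him-8 and him-8. Because each of these values stands for both replicates, the contrast between replicate 1 and replicate 2 is not visible in them.

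**Figure D4:**
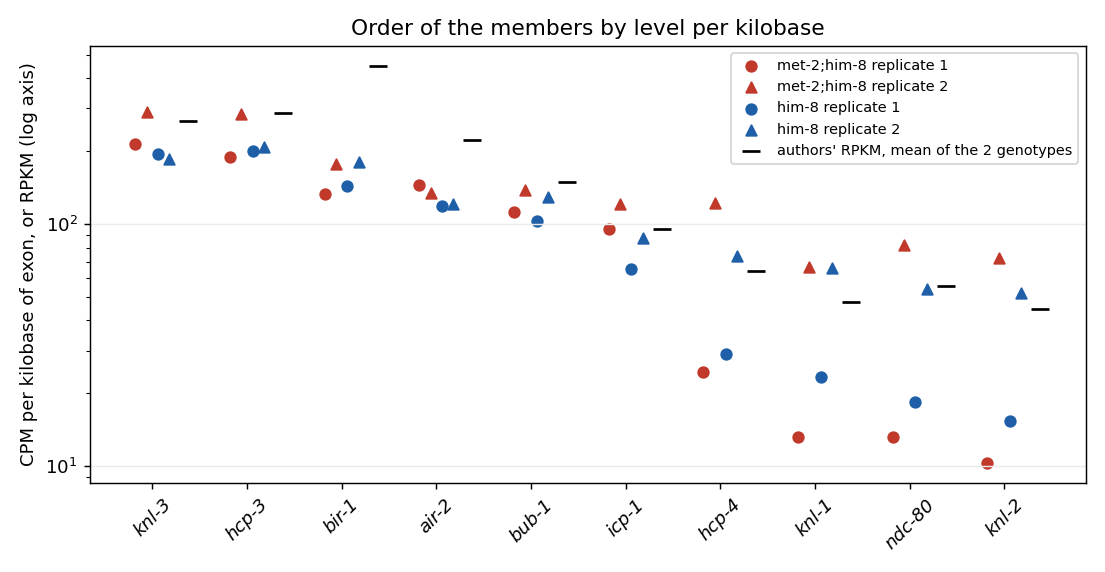
CPM per kilobase of annotated exon in each library (points, log axis) and the mean of the authors' 2 genotype RPKM values (dashes), with members ordered by their mean. The 4 genes at the right have replicate 1 (circles) far below replicate 2 (triangles), and the dash of bir-1 lies well above its points.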

How the data were processed

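The authors aligned mRNA-seq reads by STAR, followed by Cufflinks and Cuffdiff 2.2.1. The deposited values are estimated counts for every gene in each library, not scaled to depth, and RPKM per genotype, pooled over both replicates by the authors. The tool and annotation behind the estimated counts are not given in the sources used here. Cuffdiff's fold changes, p-values and q-values were not used. The design assumed whole counts, and 53 to 66 genes per library were not whole, so values were rounded first. The test was that of edgeR 4.0.16 under R 4.3.3 (quasi-likelihood, TMM, filterByExpr, no replicate block, Benjamini-Hochberg, threshold 0.05) and, as an alternative, DESeq2 1.42.0. Standard errors are the log2 fold change over the square root of F. Other alternatives were RLE factors, plain totals, no filter, the replicate block and each library left out. The fit was also run on counts simulated without a replicate effect. That run does not show how the fit does with shifts between replicates like those seen here. Exon lengths came from the WBcel235 annotation (19902 of 20389 genes). Gene starts are printed counting from 1 and the deposited table names no build. The replicates are separate dissections. Members and lists were chosen with earlier results of these data known. Named beside the members were the highest and lowest fold change of each related list, paralogs and calls, and genes with the replicate pattern were named after their values were seen. The annotation held no sequence, and none is shown.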

Additional observations from a re-analysis of the deposited data

How the results depend on the processing

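No member was called under any of the 9 alternatives (lowest adjusted p 0.316, for knl-3 without met-2;him-8 replicate 1). Of 90 refitted member values 76 kept their direction and 14 reversed, 13 of them with a library left out. The number of genes called rose from 0 to 113 with no filter, 26 with DESeq2 and 144 with the replicate block, and the related genes from 0 to 1 (csc-1, log2 fold change 1.20) with no filter. Deviations from the genotype means in same-numbered libraries had a correlation of 0.358 across genes, but with 2 pairs the numbers do not show a pairing. With the replicate block no member was called and knl-2 reversed, to -0.042. In that fit the log2 fold change was 0.24 for hcp-4, 0.064 for ndc-80 and -0.40 for knl-1. Leaving out 1 library at a time, log2 fold changes ranged from -1.72 to 1.45 for knl-2, -1.77 to 0.79 for knl-1, -1.46 to 1.37 for ndc-80, -1.09 to 1.34 for hcp-4, -0.13 to 0.50 for hcp-3, -0.066 to 0.28 for bub-1 and -0.30 to 0.14 for bir-1. No leave-out reversed knl-3 (0.15 to 0.62), icp-1 (0.29 to 0.74), air-2 (0.17 to 0.26) or spd-1 (0.49 to 1.23). The range was -1.43 to 1.36 for hcp-1, -0.73 to 0.30 for mdf-1, -0.99 to 0.086 for kbp-3, -0.39 to 0.21 for san-1 and -0.026 to 0.87 for cpar-1. A fit without 1 library leaves a genotype with 1, which is taken to vary like the other. The cause of these reversals was not tested. Against the authors' pooled RPKM, 12 of 20 levels moved by less than the spread between replicates and 8 by more. All levels of hcp-4, knl-2, knl-1 and ndc-80 were among those 12. Their replicates lay far apart, so this count says little about how well the scales match. Limits from depth cover counting error only.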
